A study of Mus musculus with 2 samples.

Results

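A block of 6 neighbouring HindIII fragments at chr12:114656273-114667095 (mouse build mm9) was followed across the immunoglobulin heavy chain locus, Igh. The block goes by the name of Ighm, Eμ and JH, after the gene of the μ heavy chain, its intronic enhancer and the joining segments. Its fragments carry the primer numbers 76 to 81, and they were chosen by number and not by any measured value. Every forward-reverse pair with at least 1 of these fragments and a distance of 10 kb or more between midpoints was kept, apart from pairs whose other fragment had a number from 28 to 35. That left 568 of the 10415 pairs at such distances, out of 10584 pairs and 206 fragments in all. No gene annotation or genome of build mm9 was used here, so the fragments were not placed on Ighm, Eμ or a J segment, the name could not be checked, and no fragment sequence is printed.

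In the order of the GRCm38.p6 gene table, Igha and the other constant genes lie at lower coordinates than Ighm, and the J, D and V segments follow at higher coordinates. Eμ, between the J segments and Ighm, is known for its part in V(D)J recombination and in transcription across the switch region in front of Ighm. In class switching, Ighm is exchanged for a constant gene nearer the 3′ regulatory region, an enhancer cluster beyond Igha that is known to contact Eμ in activated B cells. Both V(D)J joining and class switching remove the DNA between the joined ends, so a fragment can be missing from part of the cells. How many cells had lost any of these fragments was not measured. Fragments on either side of removed DNA lie closer together than in the reference build. All distances given here, and the expected counts read from them, are those of the reference build without any rearrangement. For pairs that span removed DNA they do not hold in the rearranged alleles. How far this changed the ratios, adjusted levels and calls was not tested.

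Contacts were counted by 5C, in which crosslinked chromatin is cut with HindIII, ligated, and read out with primers on the fragment ends. Both libraries came from spleen cells of C57Bl/6 mice, from which CD43-bearing cells had been removed, grown ex vivo with LPS+IL4 for 40 hours. They form 1 group of 2 replicates, described with the series as biological, so nothing could be compared between conditions, and nothing in the labels states how many mice were used. The purity of the B cells could not be checked in counts of DNA contacts.

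Forward primers amplify products with reverse primers only. The forward fragments 76, 78 and 80 and the reverse fragments 77, 79 and 81 therefore had different partners, and no pair joins fragments of the same kind. Fragment 76 lies at chr12:114656273-114658750 and entered 99 pairs. Fragment 77, at chr12:114658751-114659958, entered 89 pairs. Fragment 78, at chr12:114659959-114662158, entered 100 pairs. Fragment 79 spans chr12:114662159-114664063 and entered 90 pairs. Fragment 80 spans chr12:114664064-114664823 and also entered 100 pairs. Fragment 81, at the high-coordinate end, spans chr12:114664824-114667095 and entered 90 pairs.

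The libraries held 14503618 and 17658603 counts in all. The 568 pairs took 158732 counts in replicate 1, or 1.09% of that library (95% Wilson interval 1.09 to 1.10), and 153059 in replicate 2, or 0.867% (0.862 to 0.871). Of the counts at 10 kb or more, they took 5.15% and 2.76%. In replicate 1 the median pair of the block held 56 counts, with exact 95% Poisson bounds of 42.3 and 72.7, and in replicate 2 it held 63, with bounds of 48.4 and 80.6, beside 40 and 71 over all pairs at such distances. In replicate 1, 8 of the 568 pairs had no count, and in replicate 2 1 had none. A count of 0 allows up to 3 counts. These intervals cover counting error only, since amplified products are not independent molecules.

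Contact levels are given on 3 scales. The ratio is a count over the count expected at that distance, read from a smoothed curve through all pairs of the same library. A ratio divided by primer means has also been freed of the mean level of its forward and its reverse primer. It was not centred again by distance, so near and far pairs can differ on this scale. The adjusted level is a log2 ratio less the median of its forward primer, its reverse primer and its distance bin, so that 0 is typical for those primers at that distance and 1 is 2 times that level. An adjusted level cannot show how much a fragment contacted the locus as a whole.

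Fragment 81 stood above the other 5 in its level across the locus. Its mean ratio was 5.31 in replicate 1 and 2.93 in replicate 2 (4.12 ± 1.68, SD, n = 2), and it ranked 1 and 2 among the 108 reverse fragments. It held 53.2% and 44.8% of the counts of the 568 pairs, and 60 of its 90 pairs were above the expected count in both replicates. No share over all pairs was computed beside this count. The median ratio of all pairs was 0.357 and 0.404, so most pairs lay below the expected count in each replicate. The efficiency of a primer and the contact level of its fragment cannot be told apart on this scale.

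The other fragments lay much lower. Fragment 78 had mean ratios of 1.14 and 0.660, with 17 of 100 pairs above the expected count in both replicates. The share of all pairs above the expected count in both replicates was not computed, so such counts cannot be called high or low against the whole map. By mean ratio, fragment 78 ranked 18 and 33 among the 98 forward fragments, and its median ratio was 0.834 and 0.495. Fragment 80 followed at 0.703 and 0.567, with 13 of 100 pairs above the expected count in both replicates. It ranked 33 and 34 of 98, with a median ratio of 0.447 and 0.418. Fragments 76, 77 and 79 lay lower than these 2 in both replicates, with mean ratios of 0.317 and 0.229, 0.366 and 0.511, and 0.242 and 0.273, and with 1, 2 and 2 such pairs. The order of fragments 76, 77 and 79 differed between replicates. Fragment 76 ranked 75 and 92 of 98, fragment 77 ranked 65 and 48 of 108, and fragment 79 ranked 82 and 74 of 108. Over the 568 pairs the mean ratio was 1.32 and 0.844, against 0.955 and 0.963 over all pairs, and without fragment 81 it was 0.565 and 0.451. The median of the 568 pairs was 0.411 and 0.334, beside 0.357 and 0.404 over all pairs, so the typical pair lay above the general median in replicate 1 and below it in replicate 2.

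**Figure D1:**
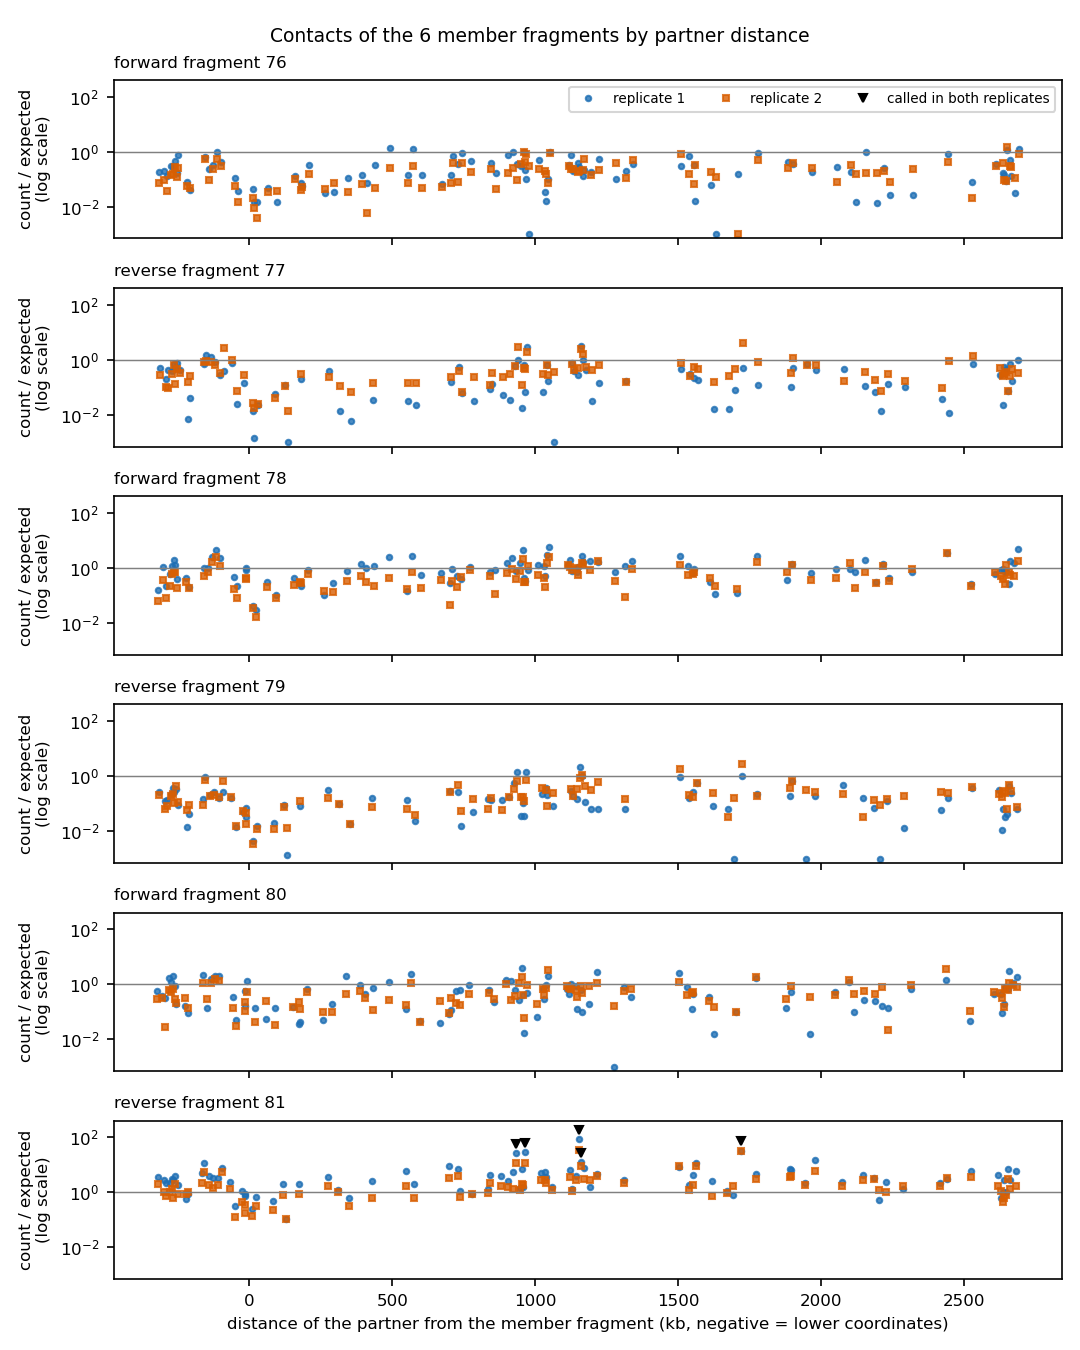
Count over expected count (logarithmic axis) of each member fragment with each of its partners, against the partner's distance from that fragment, with a panel per fragment and the 2 replicates in different marks. Pairs with no count are drawn at 0.001 and triangles mark called pairs. Points of fragment 81 lie mostly above 1, and those of fragments 76, 77 and 79 mostly below it.

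Contacts called in both replicates were few, and all of them had fragment 81 as an end. A pair was called when its count exceeded the distance curve at q under 0.01 in both replicates (Weibull tail, Benjamini-Hochberg adjustment over all 10415 pairs). Of the 568 pairs, 5 were called (0.88%), beside 0.24% of all pairs. Each replicate alone also called 5 of them, where the background was 0.432% in replicate 1 and 0.374% in replicate 2. At an unadjusted p under 0.05 in both replicates there were 13, all of fragment 81, or 2.29% beside a background of 1.58%. The other 5 fragments had 0 pairs by this method at either threshold. Each q compares a pair with other pairs of one library and not with other cells. All 5 calls were lost when levels of primers were divided out before calling or when log2 counts were used, and 3 were kept with a wider smoothing span of 0.6.

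By the positions of the reference build, the 5 called partners lay between 934 and 1720 kb toward higher coordinates. In rearranged alleles the distance can be shorter, and the expected count was not changed for this. The pair of fragment 415 with fragment 81, at 1153 kb, had 5445 counts in replicate 1 and 2855 in replicate 2. These were 86.8 and 34.0 times the expected count (60.4 ± 37.3, SD, n = 2), with q of 5.0e-47 and 1.8e-34. After division by primer means the same pair was at 6.43 and 6.57, the highest of the 568 by the lower of its replicates. Fragment 415 lies at chr12:115816276-115822016.

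Fragment 419, at chr12:115824507-115826299, is a close neighbour of 415. With fragment 81 it had 795 and 775 counts, or 12.7 and 9.24 times the expected count (q of 0.0013 and 1.0e-04). Division by primer means left 2.49 and 3.85. It was the called pair nearest to the threshold.

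The other 3 called partners were 346, 334 and 556. Fragment 346, at chr12:115628291-115630212 and 963 kb away, had 1701 and 1003 counts with fragment 81, or ratios of 28.9 and 12.1. Fragment 334, at chr12:115594002-115605173 and 934 kb away, had 1542 and 1011 counts, or ratios of 26.3 and 11.9. For these neighbours the ratio was more than 2 times as high in replicate 1 as in replicate 2. Fragment 556, at chr12:116385510-116386658 and 1720 kb away, had 2021 and 2985 counts, with close ratios of 31.4 and 32.9. Divided by primer means, these 3 pairs were at 1.89 and 3.01 for fragment 346, 2.74 and 2.53 for fragment 334, and 1.96 and 1.43 for fragment 556. On that scale, all pairs at the distances of partners 334 to 346 from the block averaged 1.44 and 1.36. Those at the distances of partner 556 averaged 0.76 and 0.82.

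No uncalled pair came near the threshold in both replicates. The lowest value of the larger q among the 563 uncalled pairs was 0.677, shared by 14 of them, so no order just short of the threshold could be given. Among these 14, fragment 272 with 81 had ratios of 8.77 and 3.41 and a q of 0.019 in replicate 1, fragment 233 with 81 had ratios of 5.94 and 1.74, and fragment 78 with 374 had ratios of 5.84 and 2.57. The 8 uncalled pairs of fragment 81 with an unadjusted p under 0.05 in both replicates lay 1021 to 1561 kb away, at 3.84 to 11.8 times the expected count in replicate 1 and 2.84 to 9.13 times in replicate 2.

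Each of the other 5 fragments had a best partner by mean ratio, none of them called. For fragment 78 it was 374, with 358 and 213 counts. For fragment 77 it was 415 again, with 192 and 212 counts and ratios of 3.06 and 2.53. Fragment 80 had its highest mean ratio with 339 (225 and 147 counts, ratios of 3.83 and 1.76). For fragment 79 it was 556, with 67 and 251 counts and ratios of 1.04 and 2.76. For fragment 76 it was 831, near the far end of the map at chr12:117305833-117307899, with 104 and 140 counts and ratios of 1.12 and 1.49. Partners called with fragment 81 were thus also the highest of fragments 77 and 79, although these had far fewer counts. Reverse fragments share their forward partners, and the ratio keeps the level of each partner's primer. With all fragments outside the block, partner 556 had mean ratios of 2.36 and 9.23, above those of fragment 79. Partners 415 to 420 had 0.84 and 0.70 with them. How much of the shared order comes from the partner primers was not tested.

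With primer means divided out, 4 of the 5 highest pairs joined the block to fragments 415 to 420. This ranking was not matched for distance. All pairs at the distances of these partners averaged 1.33 and 1.57 on this scale, and all pairs 89.6 to 167 kb apart averaged 0.53 and 0.65. After fragment 415 with 81, fragment 419 with 79 stood at 4.70 and 4.35 on 64 and 89 counts. Fragment 78 with 420 stood at 5.48 and 4.31 on 102 and 106 counts. Fragment 78 with 418 stood at 4.64 and 3.85 on 167 and 123 counts. The remaining pair, fragment 78 with 370 (chr12:115699932-115701557), stood at 3.19 and 3.88 on 173 and 128 counts. Forward and reverse fragments of the block, read by different primers, were both among these pairs.

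The 4 probed fragments 415, 418, 419 and 420, within chr12:115816276-115827627, were therefore pooled, a choice made after their values were seen and so described without a test. In the gene table's order this direction leads past the J and D segments into the V segments, but no segment was assigned. In alleles with V(D)J joining the stretch can lie nearer to the block than its reference distance, and the effect on its level was not tested. Over the 12 pairs with the block, 1153 to 1169 kb apart, the adjusted level was 1.44 in replicate 1 and 1.50 in replicate 2 (1.47 ± 0.04, SD, n = 2). In both replicates 10 of the 12 were above 0 and 9 above 1. Over the 10415 pairs, 32.7% were above 0 and 5.78% above 1 in both replicates.

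Each of the 6 fragments had a mean adjusted level above 0 with this stretch in both replicates. The means were 2.42 and 1.85 for fragment 78, 1.96 and 2.27 for fragment 81, and 1.51 and 1.38 for fragment 77. Fragment 79 stood at 1.87 and 1.15, fragment 76 at 0.65 and 1.36, and fragment 80 at 0.24 and 0.97. The counts behind the last 2 were low. Fragment 76 had 8 and 18 counts with 418 and 13 and 44 with 420, and fragment 80 had 37 and 73 counts with 418 and 6 and 40 with 420. The pairs of the reverse fragments 77 and 79 not given above were 419 with 77, at 59 and 131 counts, and 415 with 79, at 131 and 71 counts.

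The groups of partners on either side of the stretch had lower means, though single partners in them came near or reached its level. Partners 398 to 413, just before it, were at 0.25 and 0.25 with the block, and partners 423 to 436, just after it, at 0.38 and 0.40. Partner 428 had 1.72 and 0.97, partner 401 had 1.67 and 0.69 and partner 413 had 1.23 and 0.65, while partner 423, next to the stretch, had -0.18 and -0.14. The pairs of all fragments at the same distances as these 12, 94 in number, had a mean of -0.06 and 0.09.

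**Figure D2:**
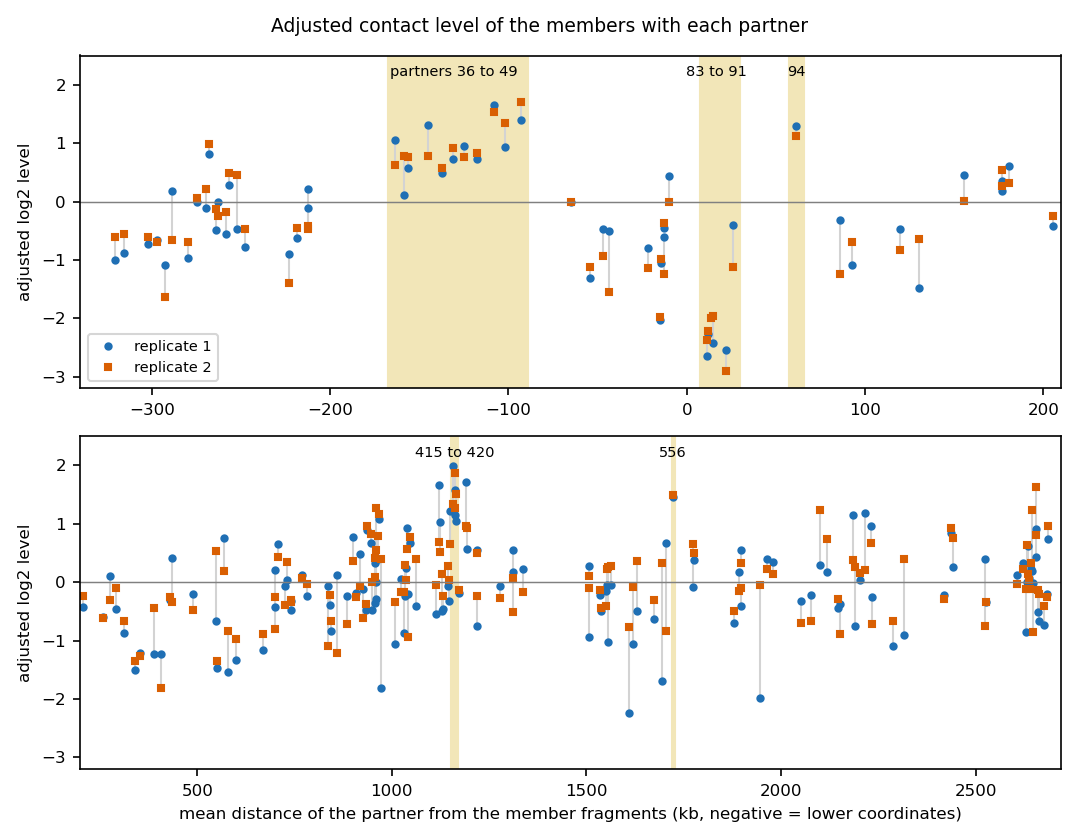
Adjusted log2 level of each partner, averaged over the member fragments it was read with, against the partner's mm9 distance from the block; the grey line joins the replicates and shading marks the partner groups named in the text. Partners 415 to 420 and 36 to 49 stand above 0 in both replicates, and the lowest points at short distance are among partners 83 to 91.

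The same 4 partners were read against every other fragment of the map to see how far the pattern extended beyond the block. The 6 probed fragments just below it (68, 70, 71, 73, 74 and 75) had an adjusted level of 0.84 and 0.98 with partners 415 to 420, above 0 but lower than the block in both replicates. The 6 just above it (82 to 86 and 90) had -0.35 and 0.07, among them fragment 82, next to the block, with 0.59 and 0.65. By the lower of the replicates, fragments 792, 81, 191, 78, 77 and 79 ranked 1 to 6 of 202 fragments. Fragment 71 ranked 7, fragment 76 ranked 13 and fragment 80 ranked 37. Each of these means rests on only 2 pairs. Reverse fragments were read with 415 and 419 and forward ones with 418 and 420, so the ranking mixes different partners. Fragments 74, 73 and 68 below the block, at ranks 8, 9 and 10, came before both 76 and 80. The high level was thus not limited to the block, and 2 distant fragments were among the top 3. The stretch was picked from the highest pairs of the block, and these pairs are part of the block's means. A high level and rank of the block beside other fragments was thus favoured by the choice. With 2 replicates of 1 group these differences were not tested.

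**Figure D3:**
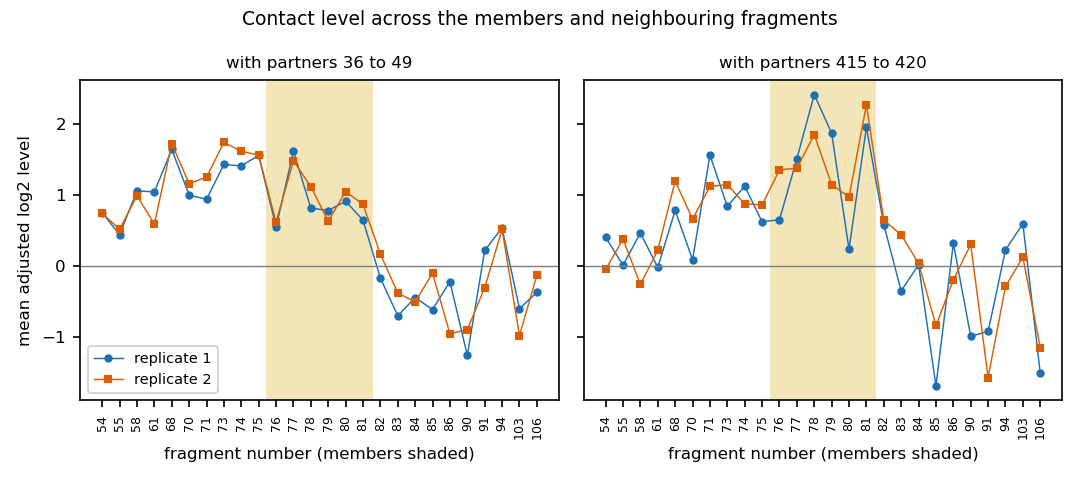
Mean adjusted log2 level of each probed fragment from 54 to 106 with partners 415 to 420 (right) and with partners 36 to 49 (left), by replicate, with the 6 member fragments shaded. In both panels levels are lower in most fragments past 81 than within the block.

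Around the called partners 334 and 346 the levels were less even. Partners 334 to 346, 9 fragments within chr12:115594002-115630212, had a mean adjusted level of 0.25 and 0.68 over 27 pairs, of which 16 were above 0 in both replicates. The flanking fragments had 0.04 and 0.09 with these partners below the block, and 0.00 and 0.10 above it. Within the group, fragments 346 and 334 were above 0 in both replicates with each of the 3 reverse fragments. Fragment 346 had 168 and 162 counts with fragment 77, and 84 and 58 with fragment 79. Fragment 334 had 58 and 239 counts with 77 and 84 and 58 with 79, so its order between these 2 changed with the replicate.

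Partner 556 was also above 0 with every reverse fragment. Its mean adjusted level was 1.46 and 1.49, beside 0.96 and 0.93 for the fragments below the block and 0.10 and -1.30 for those above it. The counts with fragment 77 were 33 and 366, far apart between the replicates, and with fragment 79 they were 67 and 251. Fragment 370, in contrast, was high with fragment 78 (2.12 and 1.79) and below 0 with fragment 76 (-0.77 and -0.96, on 6 and 6 counts). The group around it, partners 368 to 377, averaged 0.17 and 0.19.

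At lower coordinates, the side of the constant genes in the gene table, the block had raised levels with partners 36 to 49. These 11 fragments lie within chr12:114496829-114579798, 89.6 to 167 kb from the block, and were also grouped after their values were seen. Over 33 pairs the adjusted level was 0.90 and 0.97 (0.93 ± 0.05, SD, n = 2). In both replicates 28 of the 33 were above 0 and 14 above 1, and 0 of the 33 were called against the distance curve. All 565 pairs at these distances averaged 0.04 and 0.15. A median polish of primers with no term for distance turned the sign, to -0.024 for the block, and gave -1.13 and -0.76 for all pairs at those distances.

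Each of the 6 fragments shared this level. Fragment 77 was highest at 1.62 and 1.48, followed by 80 at 0.91 and 1.05 and by 78 at 0.82 and 1.12. Fragment 79 stood at 0.78 and 0.63, fragment 81 at 0.65 and 0.87, and fragment 76 at 0.55 and 0.62. The range among these fragments was wider than the difference between the replicates of any one of them.

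Within the group, partners 46 and 49 were the highest. Partner 46 averaged 1.65 and 1.53, on 255 and 465 counts with fragment 77, 145 and 232 with 79, and 2799 and 2371 with 81. Partner 49 averaged 1.39 and 1.71. Its pair with fragment 81 held the most counts of all 568, 7340 and 8412, or 7.44 and 5.48 times the expected count, but was not called. Its counts with fragment 77 were 403 and 4632 and with fragment 79 258 and 1073, so this partner was uneven between replicates.

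Contacts with partners 36 to 49 were lower in the 6 fragments just past the high-coordinate end of the block, and rose again beyond them. The fragments below the block had a still higher adjusted level of 1.33 and 1.51 with these partners, and those above it had -0.59 and -0.45, with 2 of 33 pairs above 0 in both replicates. From fragment to fragment, the mean was 0.65 and 0.87 at 81, -0.17 and 0.17 at 82, -0.70 and -0.38 at 83, and -1.26 and -0.89 at 90. Farther on it was 0.54 and 0.52 at 94, -0.60 and -0.98 at 103, and 0.65 and 0.59 at 131, so some fragments beyond came near the level of fragments 76 and 81. The distant fragments 517 (1.49 and 1.37) and 810 (1.13 and 0.92) ranked 6 and 10 of 195 by the lower of the replicates. In the block, fragment 77 ranked 3, 80 ranked 11, 78 ranked 13, 81 ranked 16, 79 ranked 17 and 76 ranked 21. The high level was thus not limited to the block and its neighbours. After division by primer means the block and its flanks kept their order, at 0.88 and 0.89 for the block, 1.10 and 1.29 below it and 0.30 and 0.33 above it. All pairs at those distances had 0.53 and 0.65. The step between fragments 81 and 83 was larger than the difference between replicates at either fragment. Grouping these partners after their values were seen favoured a high level of the block.

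Partners 28 to 35, which the choice of pairs left out, lie just beyond this group at lower coordinates. Their 18 pairs with the block had an adjusted level of 2.73 and 3.29 (3.01 ± 0.39, SD, n = 2), with 18 of 18 above 1 in both replicates and 3 called. Farther out, partners 1 to 25 were at -0.39 and -0.35. Between the block and partners 36 to 49, partners 54 to 68 were at -0.62 and -0.95. From partners 54 to 68 outward, the level along the lower side thus rose and then fell with distance.

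On the higher side the nearest partners were low. The 13 pairs with partners 83 to 91 (chr12:114667887-114691293), 10.3 to 29.6 kb apart, had an adjusted level of -1.89 and -2.04 (-1.96 ± 0.11, SD, n = 2). In both replicates 0 of the 13 were above 0 and 8 were under -1, beside 4.09% under -1 over all pairs. All pairs at these distances averaged -0.12 and -0.12. Partner 90 was lowest by its mean and in replicate 2, at -2.53 and -2.89, with partner 83 lower in replicate 1 at -2.65 (and -2.37 in replicate 2). Partner 90 had 49 and 26 counts for fragment 76, 112 and 122 for fragment 78, and 531 and 358 for fragment 80. Fragment 81 was less low with these partners, at 1334 and 1443 counts with 86 and 2388 and 2411 with 91, or adjusted levels of -0.34 and -1.02, and 0.19 and -0.17.

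The fragments below the block were about as low with partners 83 to 91, at -1.84 and -1.88. The fragments above the block had 0.51 and 0.49 with those of these partners that were 10 kb or more away. That mean rests on 5 entries, 11.8 to 19.9 kb apart. A pair with both ends among these fragments and partners was entered from each end. The 3 pairs with the lowest ratios where 50 or more counts were expected were all on this side. Fragment 86 with 79, 13.1 kb apart, had 20 and 33 counts. Fragment 117 with 79 had 1 and 14 counts, and fragment 117 with 77 had 0 and 15. The values of fragment 117 rest on few reads.

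Farther out on the higher side the levels alternated. Partner 94 (chr12:114722112-114723013) was at 1.29 and 1.12, with 80 and 113 counts for fragment 76, 581 and 741 for fragment 78, and 104 and 944 for fragment 80. The flanking fragments had 0.34 and -0.25 below the block and 0.08 and 0.34 above it with this partner. Partners 103 to 131 were at -0.22 and -0.28. Partners 171 to 241 (chr12:114996747-115243663) were low again at -0.74 and -0.67, while the fragments above the block had 0.33 and 0.47 with them. Over the 568 pairs, 46 (8.10%) had an adjusted level above 1 in both replicates and 41 (7.22%) under -1, and the differences of these shares from the 5.78% and 4.09% of all pairs were not tested. Above 0 in both were 187 (32.9%), close to the 32.7% of all pairs.

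Within the same outer limit of distance, the lower side had higher ratios than the higher side. Up to 324 kb, the reach of the map on the lower side, 117 pairs on the lower side had a mean log2 ratio that exceeded that of 55 pairs on the higher side by 2.37 and 1.80 (2.08 ± 0.41, SD, n = 2). The distances within that limit were not balanced, since 60 of the lower but 15 of the higher pairs lay beyond 200 kb. By distance the difference was 2.67 and 2.26 from 10 to 50 kb, 2.73 and 2.92 from 50 to 100 kb, and 3.35 and 2.44 from 100 to 200 kb. Beyond 200 kb it was 0.91 and 0.30, smaller than in each nearer range. On the adjusted scale the difference was 0.50 and 0.54 (0.52 ± 0.03, SD, n = 2). The adjusted scale takes out the median level of each primer, and how much of that level is contact and how much primer efficiency cannot be told apart.

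The adjusted difference was uneven along the distance. From 10 to 50 kb both sides were low, at -0.73 and -1.11 over 18 lower pairs and -1.89 and -2.04 over 13 higher ones. From 50 to 100 kb they were at 0.05 and 0.27 (10 pairs) and -0.04 and -0.27 (9 pairs). From 100 to 200 kb the lower side stood at 0.87 and 0.89 over 29 pairs and the higher side at -0.06 and -0.06 over 18. Beyond 200 kb the values of the sides overlapped, at -0.39 and -0.35 (60 pairs) and -0.45 and -0.38 (15 pairs). The lower side was thus well above 0 in 1 of the 4 ranges. In that range every lower pair had a partner from 36 to 49, the group chosen after its values were seen. The value there repeats the level of that group and adds no separate evidence.

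**Figure D4:**
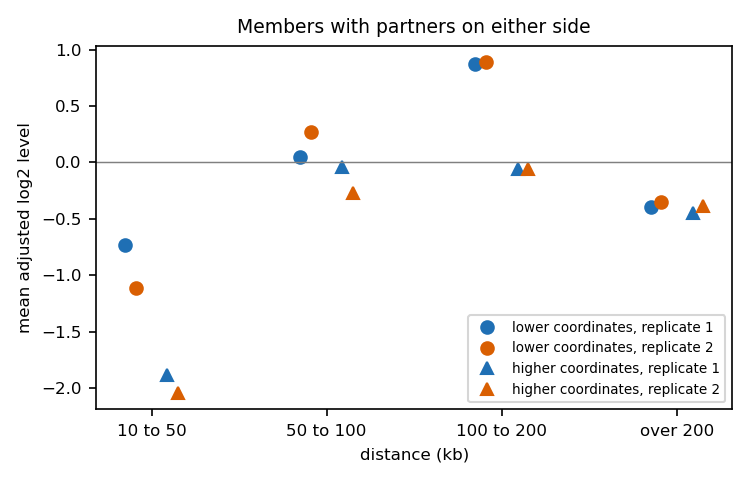
Mean adjusted log2 level of member pairs by distance bin (kb), for partners at lower and at higher coordinates, with a point per replicate. The sides part most at 10 to 50 kb, where both lie below 0, and at 100 to 200 kb, where the lower side alone stands near 0.9. All lower pairs at 100 to 200 kb are with partners 36 to 49.

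Raw counts of the block were also set against distance. At 10 to 50 kb the median pair of the block held 219 and 379 counts, beside 552 and 1223 over all pairs. From 100 to 200 kb it held 269 and 465, beside 148 and 263. The median of the block was thus higher in the second of these ranges, and that of all pairs lower, in both replicates. The mean of the block did decline, from 1240 to 923 counts in replicate 1 and from 1145 to 786 in replicate 2. From 500 to 1000 kb the block's 34 and 41 counts lay on either side of the general 30 and 60, depending on the replicate. The first window of 250 kb on the map took 39.2% and 39.4% of the block's counts and the second, which holds the block, 31.6% and 32.7%. Window 6 (chr12:115589456-115839455), which holds partners 334, 346 and 415 to 420, took 10.3% and 8.23%, at a mean ratio of 2.70 and 1.52.

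The replicates ranked the block's pairs alike. Across the 568 pairs Pearson r of the log2 ratios was 0.811 and Spearman rho was 0.808, beside 0.759 and 0.755 over all pairs. On the adjusted scale r was 0.566 and rho 0.562. These pairs share primers and libraries, so the values are a description. By fragment, rho of the log2 ratio was highest for 81 (0.856), which also held the most counts, and lowest for 76 (0.595), with 0.779 for 78, 0.728 for 80, 0.697 for 77 and 0.692 for 79.

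**Figure D5:**
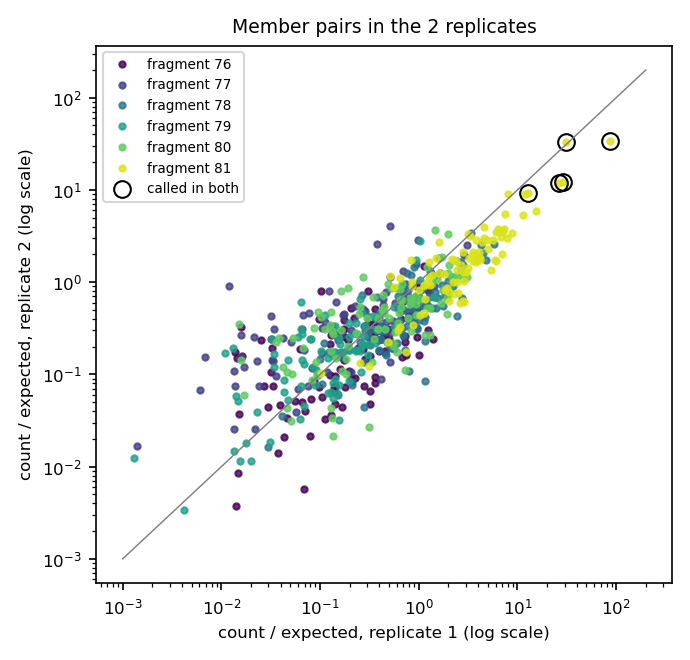
Count over expected count of each member pair in replicate 2 against replicate 1, both axes logarithmic, coloured by member fragment, with called pairs ringed and the line of equal values; 9 pairs with no count in a replicate are left out. Points follow the line (r of 0.811 over all 568 pairs), and the 5 ringed pairs of fragment 81 sit at its upper end.

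Fragments of the same primer kind could be compared over the same partners. On the adjusted scale, averaged over the replicates, fragments 79 and 81 had a Spearman rho of 0.614 and fragments 76 and 78 of 0.546. Fragments 77 and 79 had 0.443, 78 and 80 0.429, 77 and 81 0.297, and 76 and 80 0.222. The outer 2 of each kind were the least alike. Such values share each library and each partner's primer and are given as a description.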

How the data were processed

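The deposited tables hold raw counts of 5C products per forward-reverse primer pair, with fragment positions in mm9 per the file headers. Novoalign and mm9 come from the submitters' processing notes, and the version is not given in the sources used here. Depth per replicate is given in the Results. In each library, counts were smoothed against log10 distance (lowess, span 0.3) for the expected count and squared residuals for the SD; a Weibull fit to residuals over SD gave p, adjusted by Benjamini-Hochberg over the 10415 pairs of 10 kb or more. Division by primer means ran 50 rounds; each pair was part of the means it was divided by. The adjusted level is log2((count + 1)/(expected + 1)) less forward, reverse and distance medians (40 bins, 20 rounds), a scale added after the data were seen. Pairs named are those called, the best partner of each fragment, the 5 highest after division by primer means, the 3 lowest where 50 or more counts were expected, the 3 just past the threshold, and 3 uncalled pairs by the larger q, whose order among ties is that of the table. The fragments, partner groups and comparisons were chosen with earlier results of these data known. All 23 pairs of the block under 10 kb and its 18 pairs with fragments 28 to 35 were left out. The calculations were also run on simulated counts, but the outcome is not given here and is not used as support. Python 3.11.15, NumPy 2.4.6, SciPy 1.17.1, pandas 2.3.3, statsmodels 0.14.6 and matplotlib 3.10.9 were used.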

Additional observations from a re-analysis of the deposited data

Results flagged for a closer look

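Strong contacts of fragment 81 lay among the pairs that the choice of members left out. Against the expected count, the mean ratio over the replicates was 76.5 for fragment 28 with 81, 62.1 for fragment 31 with 81 and 32.5 for fragment 34 with 81. These 3 pairs were called in both replicates, and they were singled out because they lie outside the 568 pairs described.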

How the results depend on the processing

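The 5 calls were 5 with each replicate alone (range 5 to 5), and fell to 3 with a lowess span of 0.6 and to 0 without fragment 81. They also fell to 0 on log2 counts, after division by primer means, after a median polish of primers and on adjusted levels. In that order, 0, 32, 21 and 21 of all 10415 pairs were called in both replicates. At an unadjusted p under 0.05 in both replicates there were 20, 8, 7 and 5 of the block's pairs, beside 252, 123, 97 and 92 of all pairs. With partners 28 to 35 kept, the calls of the block rose to 8. The mean ratio of 1.08 was 0.844 to 1.32 by replicate, 0.373 as a median, 0.508 without fragment 81 and 1.53 with partners 28 to 35. Fragment 81 over the median of the other 5 was 10.1, with 5.74 to 14.5 by replicate, 1.01 after division by primer means and 0.981 after the polish. Both corrections bring every primer to the same level, so the last 2 values had to lie near 1. They say nothing about the level of fragment 81. The side difference of 2.08 (1.80 to 2.37) was 0.664 after division, 0.56 after the polish, 0.52 on adjusted levels and 2.65 with partners 28 to 35. Spearman's rho of 0.808 was 0.646 after division and 0.562 on adjusted levels. Partners 415 to 420 (1.47, 1.44 to 1.50 by replicate) were at 1.32 with a pseudocount of 5, 2.00 after the polish, 1.34 without fragment 81 and 1.34 without 78. Partners 36 to 49 (0.93, 0.90 to 0.97) were at 1.0 with a pseudocount of 5 and, reversed, at -0.024 after the polish, which keeps the distance trend and left all pairs at those distances at -1.13 and -0.76. Partners 83 to 91 (-1.96, -2.04 to -1.89) were at -2.78 after the polish, -2.26 without 81 and -1.81 without 78. Of single pairs, a span of 0.6 lost the calls of partners 346 and 334, a span of 0.1 those of 556 and 419, and a q of 0.001 that of 419. With a span of 0.1 the block still had 4 calls, so a pair not called at the main span was called there.

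No paired analysis was possible because there is 1 group. Depth limits pairs of a few counts, such as those of fragment 117. Fragment 81 decides the calls and the mean ratio.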
